A study of Homo sapiens with 8 samples.

Results

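In the MIA PaCa-2 line that overexpresses *HDAC1*, 476 strong H3K27ac regions overlapped no H3K27ac peak listed for the control line. They were found by merging the H3K27ac peaks of both lines wherever these shared at least 1 bp, which gave 18678 regions, 14814 of them with an MP2_HDAC1_OE peak. Each of the 14814 regions was ranked by the highest signal value of its MP2_HDAC1_OE peaks, the upper tertile (4938 regions, called strong) was kept, and the strong regions without an MP2_NTC peak are the members. They were thus chosen by their signal values and by the absence of an MP2_NTC peak, which are given here as a description. The remaining 4462 strong regions are called strong shared regions, and the 4861 regions below the threshold without an MP2_NTC peak are called weaker unique regions.

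MIA PaCa-2 is an established pancreatic carcinoma line. Both lines compared are stable CRISPRa lines that carry the lentiSAMv2 and lentiMPHv2 activator components, so the controls express the activator too. MP2_HDAC1_OE has a guide RNA to *HDAC1* and MP2_NTC a non-targeting guide, and the sources used here do not say whether either line is 1 clone. H3K27ac was precipitated in 2 samples of each line, and 2 samples of each line went without antibody. The deposited data are 1 list of reproducible peaks per line, 25045 peaks for MP2_HDAC1_OE and 22569 for MP2_NTC, each pooled from both H3K27ac samples, so there were no replicates to compare and no test of a difference between the lines could be made. The lists hold no reads, the sequencing depth is unknown, and a region without an MP2_NTC peak may hold acetylation that did not reach the list. Intervals below are 95% Wilson intervals and cover counting error only, over regions that are not replicates.

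H3K27ac, acetylation of a lysine in the tail of histone H3, marks active promoters and enhancers. HDAC1 removes acetyl groups from histones as the catalytic subunit of several corepressor complexes, and acetyltransferases such as p300 and CBP add them. Acetylated nucleosomes commonly flank a transcription start site (TSS) on both sides of a nucleosome-poor stretch. Among marker genes of the line, the keratin genes *KRT18* and *KRT19* had peaks at the promoter in both lists, as did the mesenchymal genes *VIM* and *ZEB1*. *EPCAM* and *CDH1*, and the mesenchymal genes *CDH2* and *FN1*, had none in either. *KRT8* had a peak in MP2_HDAC1_OE alone. Of the 9 leukocyte, endothelial and acinar markers, *CDH5* alone had a peak, 1 in each list. The promoter of *HDAC1* itself had 2 peaks in each list and no member. Its signal percentile was 93.9 within the MP2_HDAC1_OE list and 45.2 within the MP2_NTC list.

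Most members lay at promoters, and the sequences upstream of several of these genes are shown first, as examples of the DNA under or beside far and near members. The sequences are the 250 bases before the RefSeq TSS, 5′ to 3′ on the strand of the gene (GRCh38.p14). Capitals mark the GC box (GGGCGG or CCGCCC), the CCAAT box (CCAAT or ATTGG) and the AP-1 motif (TGANTCA, which reads the same on both strands). In the first 3, *RRP15* (chr1:218285043-218285292, plus strand), *ATRN* (chr20:3470768-3471017, plus strand) and *NT5E* (chr6:85449833-85450082, plus strand), a member covers all 250 bases and the nearest MP2_NTC peak is over 10 kb away.

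RRP15: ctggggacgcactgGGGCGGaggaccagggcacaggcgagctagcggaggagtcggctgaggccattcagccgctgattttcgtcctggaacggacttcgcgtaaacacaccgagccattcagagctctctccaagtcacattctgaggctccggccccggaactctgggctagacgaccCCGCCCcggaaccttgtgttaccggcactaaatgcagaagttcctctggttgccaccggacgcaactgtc

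ATRN: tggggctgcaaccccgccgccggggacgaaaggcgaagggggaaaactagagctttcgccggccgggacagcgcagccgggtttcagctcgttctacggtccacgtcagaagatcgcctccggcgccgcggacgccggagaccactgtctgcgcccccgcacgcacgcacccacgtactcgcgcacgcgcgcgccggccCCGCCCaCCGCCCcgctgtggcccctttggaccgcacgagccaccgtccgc

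NT5E: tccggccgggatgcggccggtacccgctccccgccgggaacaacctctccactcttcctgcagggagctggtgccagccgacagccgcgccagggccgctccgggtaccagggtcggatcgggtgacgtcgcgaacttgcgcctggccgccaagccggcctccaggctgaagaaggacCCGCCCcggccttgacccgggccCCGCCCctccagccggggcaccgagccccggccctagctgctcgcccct

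The next pair shows members with an MP2_NTC peak within 1 kb, at *MCEE* (chr2:71130230-71130479, minus strand), where the member covers all 250 bases, and at *CFAP410* (chr21:44339391-44339640, minus strand), where it covers 204 of them.

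MCEE: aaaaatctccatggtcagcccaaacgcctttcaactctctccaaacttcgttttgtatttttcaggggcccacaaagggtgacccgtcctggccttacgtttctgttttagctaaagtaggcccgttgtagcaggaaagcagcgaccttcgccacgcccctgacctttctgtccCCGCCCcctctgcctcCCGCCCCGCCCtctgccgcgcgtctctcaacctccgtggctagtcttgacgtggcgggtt

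CFAP410: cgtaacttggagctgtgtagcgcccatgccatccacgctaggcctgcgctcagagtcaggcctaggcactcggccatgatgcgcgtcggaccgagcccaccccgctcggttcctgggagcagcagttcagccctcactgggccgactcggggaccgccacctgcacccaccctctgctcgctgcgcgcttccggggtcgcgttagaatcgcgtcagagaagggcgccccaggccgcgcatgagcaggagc

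The last pair belongs to genes of the lists described further on, *PLAUR* (chr19:43670170-43670419, minus strand), with an AP-1 motif, and *JUN* (chr1:58784048-58784297, minus strand). In both, the member lies outside these 250 bases.

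PLAUR: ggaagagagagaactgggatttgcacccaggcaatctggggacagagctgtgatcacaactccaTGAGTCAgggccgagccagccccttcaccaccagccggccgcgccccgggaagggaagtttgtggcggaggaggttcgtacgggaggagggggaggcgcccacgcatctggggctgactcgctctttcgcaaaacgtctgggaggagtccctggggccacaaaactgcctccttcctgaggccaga

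JUN: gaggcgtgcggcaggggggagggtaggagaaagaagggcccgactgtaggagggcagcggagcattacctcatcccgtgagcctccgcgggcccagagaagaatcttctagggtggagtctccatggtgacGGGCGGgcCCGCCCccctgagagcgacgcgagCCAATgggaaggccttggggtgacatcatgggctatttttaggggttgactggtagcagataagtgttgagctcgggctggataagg

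These stretches were rich in G and C, from 57.6% in *MCEE* to 75.2% in *NT5E*, and 5 of the 7 held at least 1 GC box. *CFAP410* held none of the 3 motifs.

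The strongest member was not at a protein-coding promoter. It lay on chromosome 7 (155952027 to 155952761) with a signal of 131, above 99.5% of MP2_HDAC1_OE peaks, close to an end of the long non-coding RNA gene *LOC124901788*. The closest protein-coding TSS, that of the morphogen gene *SHH*, was 139564 bp away, and an MP2_NTC peak lay 378 bp from the region. That MP2_NTC peak was weak in its own list, above 8.59% of it. The 25 strongest members had signals from 96.0 to 131, and the threshold fell at 64.3. All 476 members ranged from 64.3 to 131 with a median of 72.1. Their median width was 816.5 bp, against 1027.5 bp for strong shared regions, whose merged span also takes in MP2_NTC peaks. The strongest MP2_HDAC1_OE peak alone had a median width of 457.5 bp in members and 465 bp in strong shared regions. A single peak made up 225 of the members. Just inside the threshold were, among others, members nearest to the TSS of *FRMD8*, *ZNF510* and *TEX22* (64.27 to 64.32), and just outside were regions nearest to *NAA25*, *STK4*, *NECAB3*, *PPA1* and *TRRAP* (64.13 to 64.25).

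Strong regions seldom lacked an overlapping MP2_NTC peak. Over all 14814 regions with an MP2_HDAC1_OE peak, 36.0% had no MP2_NTC peak, and among strong regions 9.64% had none (8.85 to 10.5). Applied to MP2_NTC, the same rule found 338 strong regions without an MP2_HDAC1_OE peak among 4447 (7.60%, 6.86 to 8.42). The signals chose both sets, the scaling of one list against the other is unknown, and the shares stand side by side without a test.

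The gaps of members ran from those beside an MP2_NTC peak to those far from any. The gap to the nearest MP2_NTC peak, counted as bases between the intervals, had a median of 2068.5 bp and quartiles of 329.5 and 31482 bp. The median depended on the processing, at 13779.5 bp with intervals up to 500 bp apart merged and 5240.0 bp with regions ranked by summed signal. The gap was at most 1 kb in 199 members (41.8%, 37.5 to 46.3) and over 10 kb in 170 (35.7%, 31.5 to 40.1). It was over 1 kb and up to 10 kb in 107 (22.5%, 19.0 to 26.4). Among members away from coding promoters, 65 of 179 (36.3%, 29.6 to 43.6) had a gap between 1 and 10 kb. Weaker unique regions had fewer near neighbours, since 1353 of 4861 (27.8%, 26.6 to 29.1) lay within 1 kb and their median gap was 5453 bp under the main settings. Over 10 kb the order was reversed, with the 35.7% of members against 41.8% (40.5 to 43.2) of weaker unique regions. Over 100 kb the intervals overlapped, with 11.8% (9.17 to 15.0) of members and 10.8% (9.96 to 11.7) of weaker unique regions. This range of gaps was not particular to MP2_HDAC1_OE. The 338 strong regions unique to MP2_NTC had a median gap of 2285 bp to an MP2_HDAC1_OE peak. Of these, 44.1% (38.9 to 49.4) lay within 1 kb and 39.1% (34.0 to 44.3) over 10 kb.

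**Figure D1:**
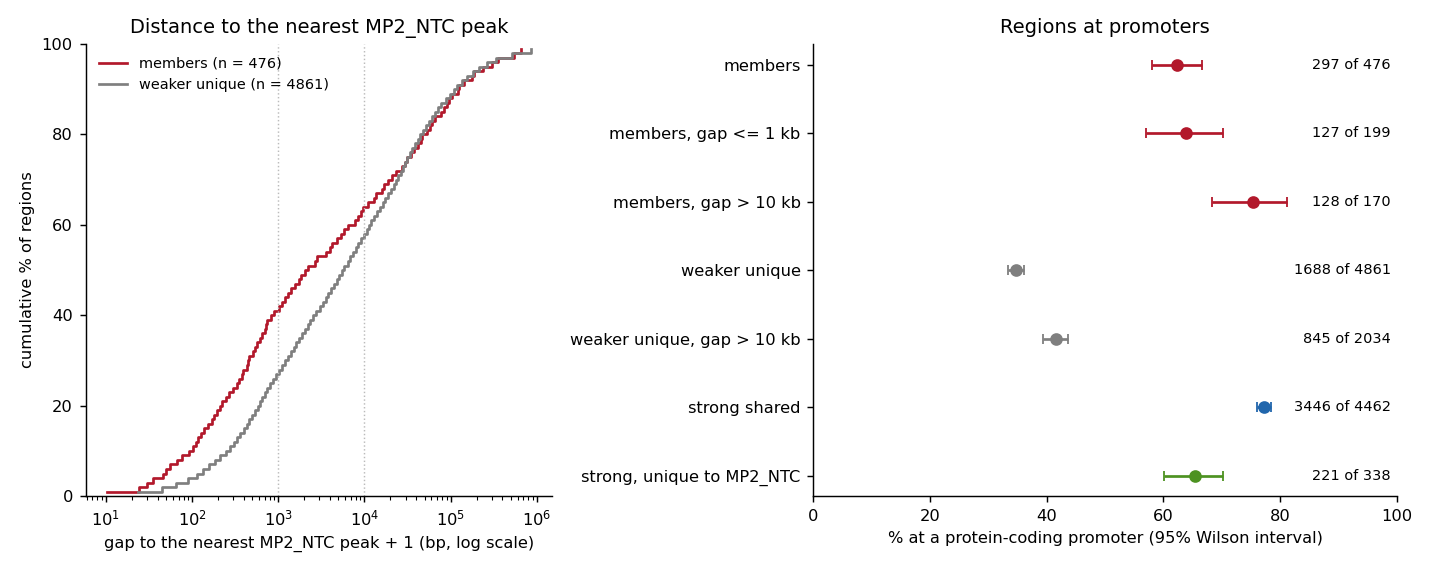
Left, cumulative percent of regions by gap to the nearest MP2_NTC peak (bp plus 1, log scale; dotted lines at 1 kb and 10 kb), with the members above the weaker unique regions at 1 kb (41.8% against 27.8%). Right, percent of each group at the promoter of a protein-coding gene with 95% Wilson intervals; far members (75.3%) lie close to strong shared regions (77.2%) and above far weaker unique regions (41.5%).

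In near members, the neighbouring MP2_NTC peak ranked above the median signal of its own list in 129 of 199 (64.8%). For 137 of the 199 it belonged to a region with a further MP2_HDAC1_OE peak, and 103 of these 137 neighbours (75.2%) ranked above the median. For the other 62 it belonged to a region unique to MP2_NTC, and 26 of these (41.9%) did. From the summit of a member's strongest peak, the closest MP2_NTC summit, which need not belong to the neighbouring peak, was a median of 763 bp away. Members with the smallest gaps were at *CCDC142* and *TTC31* (0 bp, the intervals touch), *CDC40* and *WASF1* (1 bp), *PTMA* (5 bp) and *HDLBP* and *SEPTIN2* (6 bp). In these pairs the intervals nearly touched while the summits were 373 to 749 bp apart.

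The width of the strongest peak differed along the same axis. Many peaks in the lists have a common width of 820 bp, and this width was found in the strongest peak of 13.6% (9.49 to 19.0) of near members, 36.4% (27.9 to 45.9) of those at 1 to 10 kb and 51.8% (44.3 to 59.2) of far members. It was found in 15.8% (14.7 to 16.9) of strong shared and 81.5% (80.3 to 82.5) of weaker unique regions. How the caller sets this width is not given in the sources used here, and its part in the gaps was not tested.

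Most members lay at promoters. A promoter window ran from 2 kb before to 1 kb after a TSS, or outside and inside both gene ends where the strand was not known. The window of at least 1 protein-coding gene held 297 of 476 members (62.4%, 58.0 to 66.6). The share was 34.7% (33.4 to 36.1) in weaker unique and 77.2% (76.0 to 78.4) in strong shared regions, and the intervals of the 3 groups do not overlap. It depended on the processing, at 49.7% of the regions selected by summed signal and 56.1% of those selected above the median. Members over 10 kb from an MP2_NTC peak were at promoters in 128 of 170 (75.3%, 68.3 to 81.2), against 845 of 2034 (41.5%, 39.4 to 43.7) of weaker unique regions at such distances. In the reverse direction, 221 of the 338 strong regions unique to MP2_NTC (65.4%, 60.2 to 70.3) were at promoters, with an interval that overlaps that of the members. Among those over 10 kb from an MP2_HDAC1_OE peak, 97 of 132 (73.5%, 65.4 to 80.3) were, close to the share of far members. Of the other members, 32 were in the window of a non-coding gene or pseudogene only, 70 within a protein-coding gene, 22 within another gene and 55 between genes.

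At promoters the summits sat beside the TSS. For 253 members a TSS with known strand was in reach, and the summit of the strongest peak was a median of 301 bp from it, downstream in 153 (60.5%, 54.3 to 66.3). For 112 members within 1 kb of an MP2_NTC peak, the summits of the member and of that peak lay on opposite sides of the TSS in 81 (72.3%, 63.4 to 79.8). The share in weaker unique regions within 1 kb was 71.9% (67.9 to 75.6), an interval that contains the share of the members. At *MCEE*, which encodes methylmalonyl-CoA epimerase, the member was second in rank with a signal of 116 and its strongest summit was at -188 bp from the TSS. The MP2_NTC peak began 19 bp past the member, with its summit at 176 bp. At *CFAP410*, a gene of ciliary function, the member (signal 106) had its strongest summit at -245 bp and the MP2_NTC summit was at 798 bp.

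**Figure D2:**
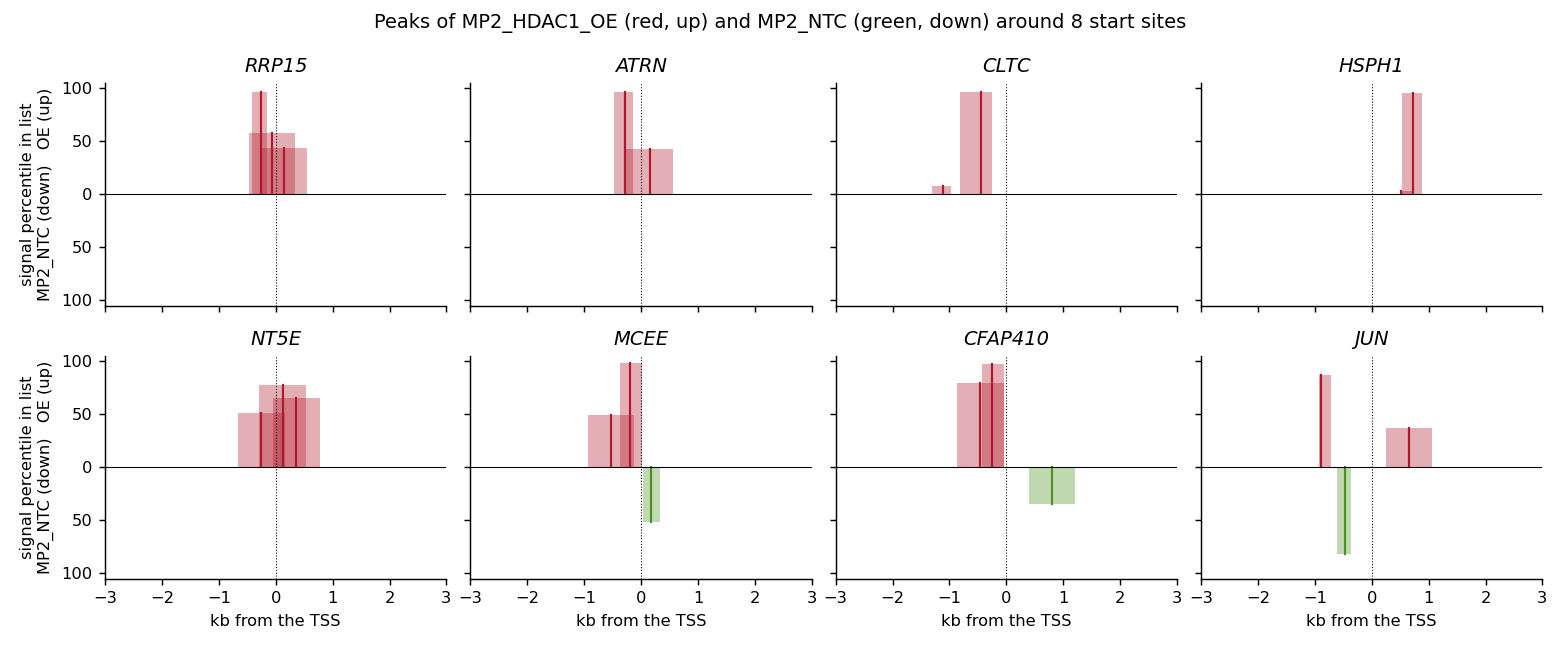
Peaks of MP2_HDAC1_OE (red, upward) and MP2_NTC (green, downward) within 3 kb of 8 TSS, oriented along the gene; height is the percentile of the signal within its own list and vertical lines are summits. *RRP15*, *ATRN*, *CLTC*, *HSPH1* and *NT5E* have no MP2_NTC peak in view. At *MCEE* and *CFAP410* the MP2_NTC peak lies downstream of the TSS, and at *JUN* it lies between the member and the TSS.

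Of 4191 protein-coding genes with any strong region in the promoter window, 348 had a member there (8.30%), and 180 had a member and no MP2_NTC peak in the window (4.29%). In 144 of the 180 all members were over 10 kb from an MP2_NTC peak. Those named next are the strongest.

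The member at *CUL7* and *MRPL2*, for a ubiquitin ligase scaffold and a protein of the mitochondrial ribosome, had a signal of 116 (gap 31094 bp). That at *RRP15*, which acts in ribosomal RNA processing, held 3 peaks with signals of 102, 50.5 and 43.3 across the TSS and a gap of 653376 bp. *ATRN*, for the glycoprotein attractin, had peaks of 100 and 42.7 and a gap of 61745 bp. None of these genes had an MP2_NTC peak in the window. The gap was 52939 bp at *CLTC*, the clathrin heavy chain (signal 98.5). *HSPH1*, a heat shock chaperone of the cytosol, had a signal of 96.9 with the summit 719 bp inside the gene and a gap of 38118 bp. The members at *ZNF184*, a zinc finger gene, *UQCC6*, an assembly factor of the respiratory chain, and *LSM1* with *BAG4* also had no MP2_NTC peak in the window, at gaps of 5438, 8325 and 4116 bp. The strand of *CUL7*, *MRPL2*, *LSM1* and *BAG4* was not known, so their members may lie at either end of the gene.

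Among the 25 strongest members, the others at coding promoters had a near MP2_NTC peak. They included *TSEN15*, a subunit of the tRNA splicing endonuclease (signal 112, gap 23 bp), *ANKHD1* (101, 316 bp), *ZNF131* (100.4, 141 bp) and *COXFA4* (100.4, 111 bp). The histone genes *H2AC13* and *H2BC13* shared a member with a signal of 98.0 and a gap of 611 bp, and reads of such near-identical histone copies may be placed with uncertainty. *STRN4* (97.0, 55 bp), *WDR81* (96.3, 43 bp) and *CDC123* with *NUDT5* (96.0, 30 bp) had gaps under 100 bp. For *TSEN15* and *STRN4* too, the strand was not known.

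The remaining members among the 25 strongest were away from coding promoters. They lay within *WDR25* (signal 99.7), *ABCA7* (98.8), *TPRG1* (98.4) and *ADTRP* (96.0), in a non-coding gene on chromosome 10 (104), and at *LINC02736* (97.3). The member in *ABCA7*, a lipid transporter, had a gap of 13602 bp, and those in *WDR25*, *TPRG1* and *ADTRP* had gaps of 604, 504 and 451 bp.

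The members farthest from any MP2_NTC peak were all at promoters. That at *FIGNL1*, an ATPase of DNA repair, had a signal of 93.9 and lay 2361337 bp from the nearest MP2_NTC peak. It was followed by *MAD2L1*, a component of the spindle checkpoint (67.2, 1380374 bp), and by 2 members at *RFX3*, a transcription factor of ciliated cells (73.1 and 67.1, 1135750 and 1135102 bp). The fifth was at *TMEM182* and *SLC67A2* (71.2, 666724 bp).

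Few genes of the 15 lists of pathways relevant to pancreatic cancer and HDAC1 had a member. Of 533 genes, 108 had any strong region in the window and 8 a member (7.41%), a share close to the background of 8.30% and so no result about these lists. In 7 of the 8 no MP2_NTC peak was in the window, as in 180 of all 348 genes with a member (51.7%). From the list of epithelial to mesenchymal transition, *NT5E*, the ecto-nucleotidase that forms adenosine, had 3 peaks across the TSS with signals of 65.4, 55.3 and 47.0 and a gap of 142508 bp. *PLAUR*, the urokinase receptor, had a member within the gene (68.2, gap 15835 bp). *EFNA4*, an ephrin ligand, had one at the TSS (66.9, 11895 bp), and *SMARCC2*, a subunit of the SWI/SNF remodeler, had one with a signal of 79.1 and a gap of 30415 bp.

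Among apoptosis genes, *BBC3*, which encodes the p53 target PUMA, had a member with a signal of 70.9 and a gap of 3930.0 bp. *CASP9*, the initiator caspase of the mitochondrial route, had one with a signal of 85.8 and a gap of 684 bp. That member lay between *CASP9* and *DNAJC16*, nearer to the TSS of *DNAJC16* (699 bp), whose window also held an MP2_NTC peak. They were 2 of the 11 genes of that list with a strong region, a count too small to set against the background of 8.30%. Of the AP-1 genes, *JUN* had a member from -922 to -714 bp relative to the TSS with a signal of 76.8. An MP2_NTC peak lay between that member and the TSS, 111 bp away, above 81.6% of its list. *MAFK*, for a small Maf protein, had a member with a signal of 66.5 and a gap of 4853 bp.

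Several lists had no member at a promoter. They were the lists of small GTPases and their regulators, with 19 listed genes that had a strong region, histone deacetylases and corepressors (11), hypoxia and glycolysis (9), drug transport and metabolism (9) and the cell cycle (5). The same held for the YAP and TEAD list and the TGF-beta and SMAD list (4 genes each), the pancreatic lineage list (2) and the receptor tyrosine kinase list (1). These zeros hold for the listed genes only, and with so few genes per list and a background of 8.30% they are no result about the lists. Genes of like function outside the lists did have a member, among them, chosen after their values were seen, the small GTPase genes *RAN* (88.1, gap 690.0 bp) and *ARL2* (70.6, gap 209 bp) and the mitotic genes *KIF2C* (88.1, gap 7882 bp) and *MAD2L1*. Within gene bodies but outside the window, members were found in *VIM* (70.0, 1631 bp from the TSS), at 2 places in *COL5A2* (74.9 and 70.8), and in *WWTR1* (83.0), *TGIF1* (66.7) and *SEMA3D* (68.2). The member in *SEMA3D*, a secreted semaphorin, was 318296 bp from an MP2_NTC peak, whereas those in the other 4 genes had gaps of 171 to 2165 bp.

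Members were spread over the genome. They lay on 23 chromosomes, with the most on chromosome 1 (53) and chromosome 2 (51). Set against the number of strong regions, the share without an MP2_NTC peak ran from 5.22% (2.55 to 10.4) on chromosome 8 to 17.2% (9.64 to 28.9) on chromosome 15. In 20 of 23 chromosomes the interval covered the overall 9.64%. It lay above on chromosome 15, barely, and on chromosome 2 (13.4%, 10.4 to 17.2), and below on chromosome 5 (6.33%, 4.29 to 9.25). Copy number of the chromosomes in either line was not analysed here.

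**Figure D3:**
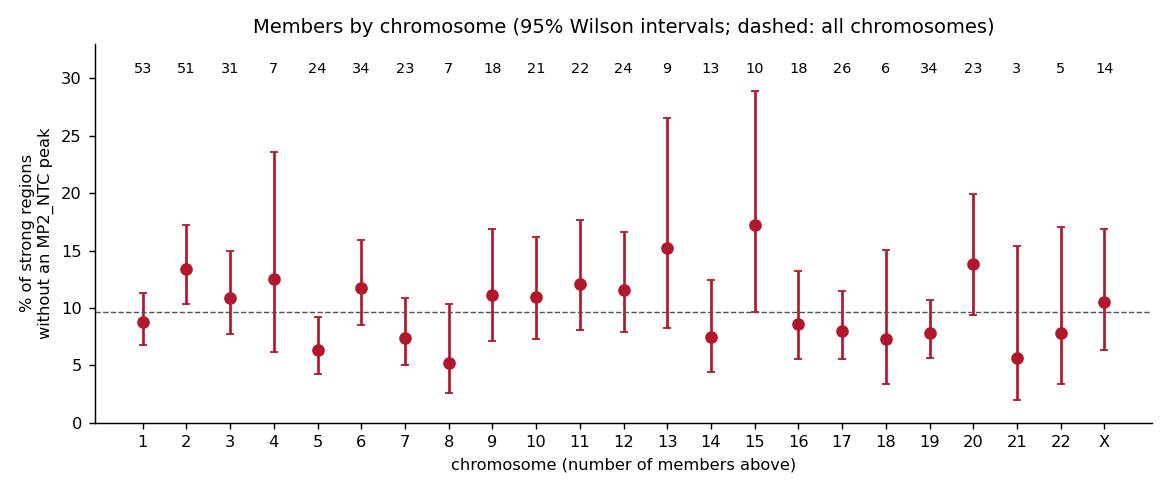
Percent of strong regions without an MP2_NTC peak on each chromosome, with 95% Wilson intervals and the number of members printed above; the dashed line is 9.64%, over all chromosomes. Chromosomes 1 and 2 hold 53 and 51 members, and chromosome 15 has the highest share at 17.2%.

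On a finer scale, 188 of the 306 windows of 10 Mb with a merged region of either line, strong or not, held a member. The most were 11 on chromosome 19 from 50 to 60 Mb, out of 74 strong regions, among them *ZNF416*, *ZNF544*, *RPS9* and *CHMP2A*. There were 10 of 65 on chromosome 11 from 60 to 70 Mb (15.4%). Chromosome 19 from 0 to 10 Mb had 9 of 97 (9.28%), close to the overall 9.64%. Chromosome 3 from 180 to 190 Mb had 8 of 54 (14.8%), at or near *TPRG1*, *P3H2* and *EEF1AKMT4*. Clustering was limited. Another member lay within 50 kb of 72 members (15.1%, 12.2 to 18.6) and within 1 kb of 16. Runs of regions unique to MP2_HDAC1_OE that no MP2_NTC peak interrupted held at most 2 members, in 17 of 459 runs. The runs with 2 members and the most regions, 5 each, were on chromosome 12 and on chromosome 2 between 220104598 and 220226360. On chromosome 12, a sparse run of 5943 kb ended at *RAN*, and a run at *NAA25* spanned 8.45 kb. Runs with 2 members and 4 regions were at *LIPA* on chromosome 10 (4.93 kb) and around *SMAD3* on chromosome 15 (380 kb).

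Base composition under members was close to that under other strong regions. Members covered part of the RefSeq promoter (250 bases before to 50 after the TSS) of 174 protein-coding genes out of 15842 with a sequence. Their median G and C content was 64.5%, against 64.7% for the 2808 promoters under strong shared regions and 62.7% for all. The ratio of observed to expected CpG was 0.871 in the median, against 0.867 and 0.763. GC boxes were found in 76.4% (69.6 to 82.1), compared with 69.1% (67.4 to 70.8) under strong shared regions, 79.3% (76.5 to 81.9) under weaker unique regions and 58.5% of all promoters. The ETS core (CCGGAA or TTCCGG) was found in 40.2% (33.2 to 47.7), against 39.2% (37.5 to 41.1) and 22.9%. It was less frequent under weaker unique regions, at 29.7% (26.8 to 32.9).

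The other motifs were not more frequent than over all promoters. The CCAAT box was present in 36.2% (29.4 to 43.6), and in 36.4% of all promoters. A TATA box (TATAAA or TTTATA) was present in 4.02% (1.96 to 8.07), against 9.63% of all. It was as infrequent under strong shared regions, at 5.13% (4.37 to 6.01), and weaker unique regions, at 3.59% (2.54 to 5.05). The AP-1 motif was present in 6 of 174 (3.45%, 1.59 to 7.32) and in 5.75% of all promoters, and the CRE (TGACGTCA) in 3 of 174, with 2.59% of all. A match is a description of letters in this window, and sequence under members away from promoters was not used here. For far and near members the intervals overlapped, with GC boxes in 78.4% (68.7 to 85.7) of 88 and 74.6% (62.7 to 83.7) of 63.

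**Figure D4:**
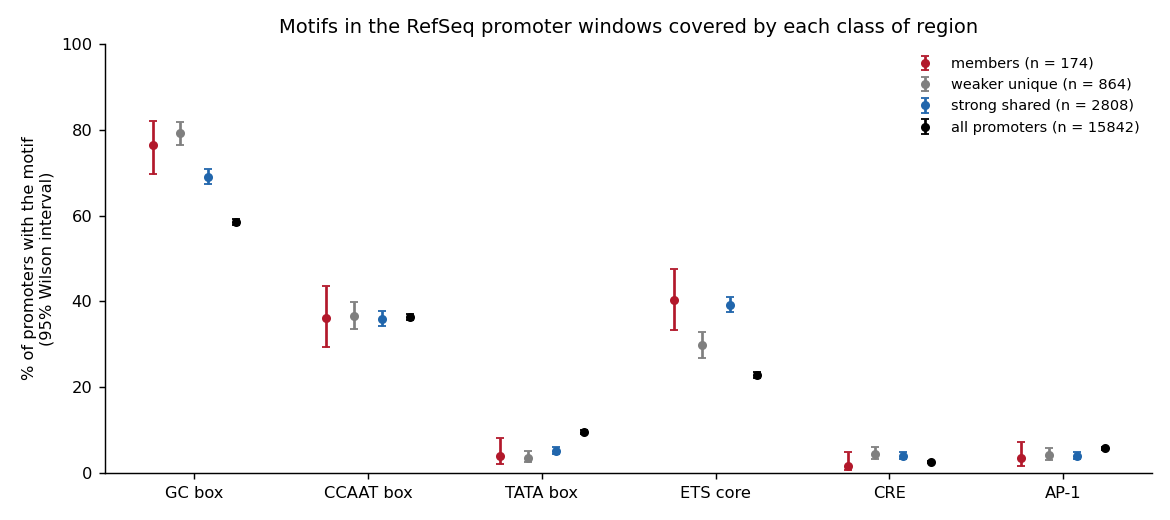
Percent of RefSeq promoters of protein-coding genes that hold each motif on either strand, for promoters covered by members (174), weaker unique regions (864) and strong shared regions (2808) and for all 15842, with 95% Wilson intervals. GC boxes (76.4%) and the ETS core (40.2%) are more frequent under members than over all promoters (58.5% and 22.9%). The TATA box is less frequent under members (4.02%), strong shared regions (5.13%) and weaker unique regions (3.59%) than over all promoters (9.63%).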

How the data were processed

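Per the labels and the study's methods, the authors read H3K27ac ChIP and no-antibody libraries of both lines as 75 bp single-end sequences, processed them with the pipeline of ENCODE and deposited the optimal IDR peaks (reproducible between samples) as 1 list per line. The submitters' processing notes name hg38, BWA 0.7.12 and Picard 1.88. The peak caller is not given in the sources used here. The deposited signal is a value per peak from the caller, used only for ranks within a list. The deposited score follows the scaled IDR, is capped at 1000 and was not used to choose regions. It was at the cap in 425 members. The deposited summit offsets were kept within the peak, which changed 22 MP2_HDAC1_OE and 18 MP2_NTC peaks. There are no counts, so depth and its precision are unknown.

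Regions were merged at 1 bp and ranked by highest signal. The members and the gene lists were chosen with earlier results of these data known. Genes came from RefSeq (GRCh38.p14). Of 20037 protein-coding genes, 15842 had a TSS and strand, and both ends were used for the other 4195. That applied to 57 of the 348 genes with a member. Exons and introns were not annotated. Named are the 25 strongest members, list genes with a member, the 5 nearest and 5 farthest, the 5 fullest runs, the 5 regions on either side of the threshold, and the chromosomes and windows with the most members. A few items that this rule selects are not reported here. Printed sequences beyond list genes belong to the 2 strongest far and 2 strongest near members that overlap a RefSeq promoter sequence outside chromosome 8, so stronger members at genes without one were passed over. For the AP-1 motif, promoter sequences stood in for sequence around summits. The tools were Python 3.11.15 with scipy 1.17.1, pandas 2.3.3, numpy 2.4.6 and, for figures, matplotlib 3.10.9, and merging, ranking and gaps were tested on simulated lists. Alternatives covered merging, thresholds, ranking and windows.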

Additional observations from a re-analysis of the deposited data

How the results depend on the processing

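Of 52 alternative values, 30 stayed within the 95% interval of the main value (for the number of regions, within 1.5 times) and 22 moved. No paired analysis was possible because the 2 H3K27ac samples of a line are pooled in its list, and for the same reason no replicate could be left out. AP-1 windows of 500 bp around summits were not run without a genome sequence. With intervals up to 500 bp apart merged too, which removes most near members by construction, 264 regions remained (6.05% of strong regions), covering 271 of the 476 members, with a median gap of 13779.5 bp, 54.2% over 10 kb and 5.68% within 50 kb of another. Single MP2_HDAC1_OE peaks gave 1095 (13.1%), with 35.9% within 50 kb of another. The upper quartile gave 261 (7.05%), with 11.1% within 50 kb, and regions above the median 1152 (15.6%), with 27.1% within 50 kb and 56.1% at coding promoters. Ranking by the sum of signals gave 599 regions (12.1%) that held 225 of the members (47.3% of the members, 37.6% of the 599), with a median gap of 5240.0 bp, 42.9% over 10 kb and 49.7% at promoters. Keeping the 75% of peaks with the highest signal gave 10.7% of strong regions without an MP2_NTC peak. At 10 kb in place of 50 kb, 7.56% of members had another nearby, and 69.1% were at the promoter of any annotated gene. The share of members on the chromosome with the most members, whichever that was, and the share with an AP-1 motif stayed within the interval under each alternative.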
